A study of Mus musculus with 20 samples.

Results

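Gangliosides are sphingolipids of the outer cell membrane whose sugar chain carries sialic acid. The values here are those of 9 genes of their synthesis and breakdown (Ugcg, B4galt6, St3gal5, B4galnt1, Neu3, Neu1, Gm2a, Hexa and Glb1) in granulosa cells (GCs), the somatic cells that line the ovarian follicle. The 9 genes were matched by symbol to 9 of 55487 gene identifiers. St3gal5, Neu3 and Gm2a had been picked because they differed between the mouse lines in these same data, so their line differences are given as a description without a test, while the other 6 were taken because they belong to the same path.

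GCs came from 20 adult female mice, 5 in each of 4 groups: ctrl mice in estrus, ctrl mice in diestrus, FL1 mice in estrus and FL1 mice in diestrus. FL1 is a Dummerstorf line selected over many generations for litter size and litter weight, and ctrl is the unselected line bred from the same founder population. Neither line carries a transgene, no mouse was treated, and the stage was read from vaginal smears. Mural GCs of the largest follicles were taken without the oocyte and its cumulus cells, and each mouse gave 1 library. With 1 selected line and 1 control line, an effect of the selection and other differences between these lines cannot be told apart.

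Between 5446576 and 8257041 reads per mouse (median 6457586) were counted on genes. Levels are given as CPM, counts scaled to a common library size after TMM normalization (edgeR's cpm). The kit reads the 3′ end of each transcript, so counts do not grow with transcript length, and levels of different genes are compared here without division by length. The GC markers Inha (group means of 4130 to 5670 CPM), Foxl2 and Fshr were present in all 4 groups, while Amh was low, with means of 1.00 to 7.69 CPM. The summed level of 7 oocyte markers was 46.6 to 606 CPM per mouse although oocytes were not collected. The 9 macrophage and leukocyte markers summed to 7.67 to 107.9 CPM. Higher sums were those of 7 markers of stroma and smooth muscle (95.8 to 1628 CPM) and 5 of red blood cells (47.6 to 1620 CPM). Theca markers summed to 64.0 to 328 CPM, endothelial markers to 9.81 to 84.8 CPM and those of surface epithelium to 1.45 to 60.2 CPM. In such bulk samples fewer cells of a type and less RNA per cell cannot be told apart.

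Ganglioside synthesis starts when Ugcg adds glucose to ceramide on the Golgi membrane. B4galt5 or B4galt6 then adds galactose to give lactosylceramide, and St3gal5, the GM3 synthase, adds the first sialic acid. From GM3, B4galnt1 opens the path to GM2 and the larger gangliosides. For breakdown, sialidases remove sialic acid, Neu3 mainly at the plasma membrane and Neu1 in the lysosome. Glb1 (β-galactosidase) and Hexa (the α subunit of β-hexosaminidase A) remove further sugars in the lysosome, and the protein of Gm2a lifts GM2 out of the membrane so that the hexosaminidase can reach it. Mutations of human HEXA and GM2A cause storage of GM2.

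The 3 picked genes stood apart in different directions. St3gal5, which makes GM3, and Neu3, which removes its sialic acid, were lower in FL1 mice in both stages, and Gm2a was higher in both stages. For each of the 3 genes the 5 FL1 mice lay entirely outside the range of the 5 ctrl mice of their stage. The 5 other members that could be tested (Ugcg, B4galt6, Neu1, Hexa and Glb1) overlapped between the lines in both stages, and none passed the test. Most genes did the same: the share that passed by edgeR was 0.769% of 13007 in estrus and 0.248% of 12886 in diestrus. Without overlap between the lines were 3.55% and 1.59%. The contrast of these 5 members with the 3 picked genes follows from the picking and says nothing about the path.

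**Figure D1:**
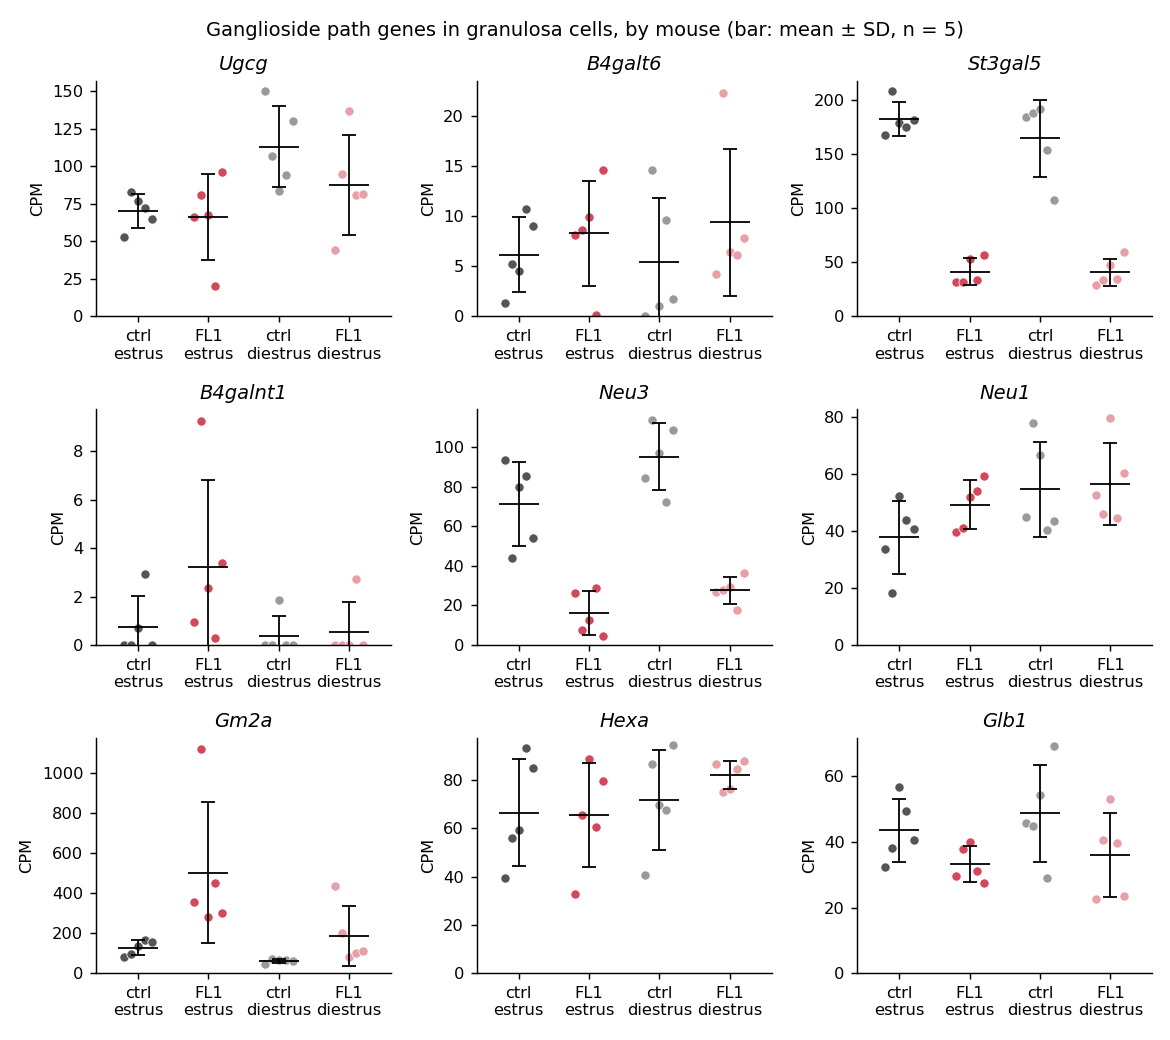
CPM of the 9 genes in each of 20 mice (points) in 4 groups, with mean ± SD of 5 mice as bars; the axes start at 0 and differ between genes. St3gal5 and Neu3 sit lower and Gm2a higher in FL1 mice of both stages without overlap with ctrl mice, while Ugcg, Neu1, Hexa and Glb1 overlap between the lines.

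The 3 picked genes lie on different chromosomes. Their promoter windows are shown because these are the members that stood apart between the lines. Each window runs from 250 bases before to 50 bases after the start in RefSeq (GRCm38.p6). Capitals mark the GC box GGGCGG and the CCAAT box CCAAT on either strand.
St3gal5 (chr6:72097358-72097657, plus strand): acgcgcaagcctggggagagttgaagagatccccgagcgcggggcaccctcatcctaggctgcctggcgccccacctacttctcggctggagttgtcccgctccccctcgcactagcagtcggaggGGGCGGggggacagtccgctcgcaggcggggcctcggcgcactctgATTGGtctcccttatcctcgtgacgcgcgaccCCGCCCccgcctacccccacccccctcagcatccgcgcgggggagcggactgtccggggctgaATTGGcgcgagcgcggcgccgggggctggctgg
Neu3 (chr7:99828368-99828667, minus strand): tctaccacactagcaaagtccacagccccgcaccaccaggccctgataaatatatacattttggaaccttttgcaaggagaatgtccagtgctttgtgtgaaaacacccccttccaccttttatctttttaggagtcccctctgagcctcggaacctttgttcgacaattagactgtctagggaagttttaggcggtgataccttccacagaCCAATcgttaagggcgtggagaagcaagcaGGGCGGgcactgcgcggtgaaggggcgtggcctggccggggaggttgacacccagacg
Gm2a (chr11:55097735-55098034, plus strand): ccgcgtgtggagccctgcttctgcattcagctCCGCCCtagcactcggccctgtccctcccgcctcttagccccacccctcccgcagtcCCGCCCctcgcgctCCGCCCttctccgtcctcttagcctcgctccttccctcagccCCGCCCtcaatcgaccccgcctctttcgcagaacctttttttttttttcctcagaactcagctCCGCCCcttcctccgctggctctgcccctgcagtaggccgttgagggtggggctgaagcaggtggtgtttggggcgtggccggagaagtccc

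St3gal5 and Neu3 each held a GC box and a CCAAT box, with 2 of each in St3gal5 and 1 of each in Neu3. Gm2a held 5 GC boxes and no CCAAT box. Of the members that were not picked, Neu1 and Hexa also held a CCAAT box and Ugcg and Glb1 held none. A GC box was present in 35.7% and a CCAAT box in 37.4% of the 32851 promoters of the same length. Windows were at hand for 7 of the 9 members, and all 7 held a GC box, so neither box sets the picked genes apart from Ugcg, Neu1, Hexa and Glb1. The TATA box TATAAA (13.6% of promoters), the core TGACGT of the cyclic AMP response element (7.5%) and the nuclear receptor motif AGGTCA (16.3%) were in none of the 7 windows. Glb1 alone held the E box CACGTG, which 7.2% of promoters hold. In G and C content St3gal5 reached 72.7%, Gm2a 65.7% and Neu3 53.0%, against a median of 52.7% over all promoters. These are matches of letters in a window and not shown to be binding sites.

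St3gal5 (ENSMUSG00000056091, chromosome 6, 72097592 to 72154571, plus strand, GRCm38) had the highest mean of the members in ctrl mice. In estrus the 5 ctrl mice had 168, 209, 179, 175 and 182 CPM and the 5 FL1 mice 31.7, 31.45, 53.5, 34.1 and 57.3 CPM. In diestrus the ctrl mice had 184, 189, 191.5, 154 and 107.5 CPM and the FL1 mice 29.2, 33.6, 48.0, 34.6 and 59.4 CPM. The highest FL1 mouse of all 10 was thus well below the lowest ctrl mouse of all 10.

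The fitted level of St3gal5 in FL1 mice was 4.39-fold lower in estrus (log2 fold change −2.14, SE 0.22, 95% interval −2.60 to −1.67) and 4.02-fold lower in diestrus (−2.01, SE 0.24, interval −2.52 to −1.49). Both values belong to the contrast by which the gene was picked. The difference of the log2 fold changes between the stages, diestrus minus estrus, was 0.12 (SE 0.32). No change with stage passed the test for St3gal5. Its log2 fold changes in diestrus against estrus were −0.15 in ctrl mice (interval −0.55 to 0.25) and −0.04 in FL1 mice (interval −0.63 to 0.56), with adjusted p = 0.859 and 0.990 by edgeR.

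Gm29438, a transcript whose existence the annotation marks as open to experiment, lies inside St3gal5 on the same strand without sharing exon bases. It had a mean of 8.59 CPM in ctrl mice in estrus and 0.817 CPM in FL1 mice in estrus, and of 13.6 and 0.682 CPM in diestrus. In diestrus 4 of 5 FL1 mice had 0 counts, while the ctrl mice had 32 to 171. Its level thus lay below that of ctrl mice as well, without overlap in diestrus and with overlap in estrus, but it passed the test in neither stage (adjusted p = 0.297 and 0.409 by edgeR). It was chosen with its values in view. The antisense gene 4933431G14Rik in the same region had 0 counts in all mice, and no near-identical copy of the 3′ end of St3gal5 was found.

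Neu3 (ENSMUSG00000035239, chromosome 7, 99811439 to 99828417, minus strand) was more variable. In estrus the ctrl mice had 93.3, 44.0, 80.0, 85.1 and 53.8 CPM and the FL1 mice 26.4, 7.49, 12.6, 28.9 and 4.41 CPM. In diestrus the ctrl mice had 84.6, 113.5, 96.75, 72.3 and 108.7 CPM and the FL1 mice 26.5, 27.8, 29.3, 17.55 and 36.5 CPM. The groups did not overlap within a stage, and the lowest FL1 mouse in estrus, replicate 5, rested on 26 reads.

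In the fit Neu3 was 4.46-fold lower in FL1 than in ctrl mice in estrus (a log2 value of −2.16, SE 0.43, interval −3.05 to −1.26) and 3.44-fold lower in diestrus (−1.78, SE 0.23, interval −2.28 to −1.29). The line differences of the stages differed by 0.37 (SE 0.50) on the log2 scale. Stage gave values above 0 in both lines, 0.41 in ctrl mice (interval −0.08 to 0.90, adjusted p = 0.552 from edgeR) and 0.77 in FL1 mice (interval −0.18 to 1.72, adjusted p = 0.660 from edgeR), and neither passed the test. The 2 other sialidase genes of the genome, Neu2 and Neu4, were nearly absent, with 4 and 1 reads in total over 20 mice.

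Gm2a (ENSMUSG00000000594, chromosome 11, 55098115 to 55113029, plus strand) was the most abundant member in FL1 mice. In estrus the ctrl mice had 82.6, 95.8, 136, 165 and 159 CPM and the FL1 mice 357.5, 1119, 282, 450.4 and 301 CPM. In diestrus the ctrl mice had 45.85, 72.1, 66.7, 68.5 and 60.2 CPM and the FL1 mice 437, 203, 81.0, 99.7 and 109.9 CPM. The lines did not overlap within a stage, although in diestrus the gap between the highest ctrl mouse and the lowest FL1 mouse was small.

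The level of Gm2a in FL1 mice was 3.93-fold that of ctrl mice in estrus (log2 fold change 1.98, SE 0.34, interval 1.26 to 2.69) and 2.99-fold in diestrus (1.58, SE 0.38, interval 0.77 to 2.38). Both fold changes belong to the contrast by which the gene was picked. In diestrus Gm2a was not called (adjusted p = 0.153 by edgeR), nor in any of 10 fits without 1 mouse. Replicate 2 of FL1 in estrus weighed on the first value: without it the mean was 348 ± 75.5 CPM (SD, n = 4) in place of 502 CPM, and the fitted log2 fold change was 1.45. In diestrus replicate 1 of FL1 did the same, with 0.99 without it. The line differences of the stages differed by −0.41 (SE 0.54).

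Markers of other cell types were examined beside Gm2a, and none was called between the lines. Those of macrophages and leukocytes had estimates above 0 in FL1 mice for 4 of 6 tested in estrus and 4 of 4 in diestrus (median log2 fold changes 0.57 and 1.66). Over the whole list of 9 they summed to 19.2 to 48.0 CPM in ctrl and 46.7 to 107.9 CPM in FL1 mice in estrus, and to 7.67 to 21.4 CPM in ctrl and 9.88 to 84.0 CPM in FL1 mice in diestrus, so that the lines overlapped in both stages, and no marker was at 0 throughout a group. FL1 replicate 2 in estrus, with the highest Gm2a, had the lowest sum of its group (46.7 CPM). FL1 replicate 1 in diestrus, with the highest Gm2a of its group, also had its highest sum (84.0 CPM). Other lists lay above 0 as well, with 4 of 4 endothelial markers in estrus and 5 of 5 in diestrus (median log2 fold changes 0.81 and 0.71), 6 of 7 and 7 of 7 oocyte markers (0.65 and 0.97), 4 of 4 and 4 of 4 red blood cell markers (0.62 and 1.61) and 4 of 6 and 5 of 6 markers of stroma and smooth muscle (0.40 and 0.89). For surface epithelium 4 of 5 were above 0 in estrus (median 1.77) and 0 of 1 in diestrus, and for theca cells 4 of 5 and 1 of 3. The part of these cells in the level of Gm2a was not tested.

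Gm2a was also the only member whose expression changed with stage by the test. In ctrl mice it fell by 1.03 on the log2 scale from estrus to diestrus (SE 0.23, interval −1.51 to −0.56, adjusted p = 0.0293 from edgeR), and the 5 mice in diestrus were all below the 5 in estrus. This comparison shares the ctrl mice with the contrasts by which Gm2a was picked. Among all 12850 genes tested 1.36% were called and 3.66% did not overlap, against 1 and 2 of the 8 members tested. The call was fragile: it was lost when ctrl replicate 3, 4 or 5 in estrus or ctrl replicate 1, 3, 4 or 5 in diestrus was left out, with adjusted p-values of up to 0.0862 from edgeR and log2 fold changes that stayed between −1.15 and −0.92, and with all 20 mice in 1 fit (adjusted p = 0.233). In FL1 mice the estimate was −1.43 (SE 0.45, interval −2.39 to −0.48) and did not pass (adjusted p = 0.225 from edgeR), but without replicate 1 in diestrus it was −2.04 with an adjusted p of 0.0145. In ctrl mice 6 of 6 stroma and smooth muscle markers tested also fell with stage (median −1.29). So did 5 of 5 of macrophages and leukocytes (−1.14), 4 of 4 endothelial (−0.65) and 3 of 4 red blood cell markers (−0.755). Below 0 were 3 of 7 oocyte, 2 of 3 theca, 3 of 10 granulosa and 0 of 2 surface epithelium markers. Fshr, Fst and Cyp17a1 were called, each higher. The part of other cells in the fall of Gm2a was not tested.

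**Figure D2:**
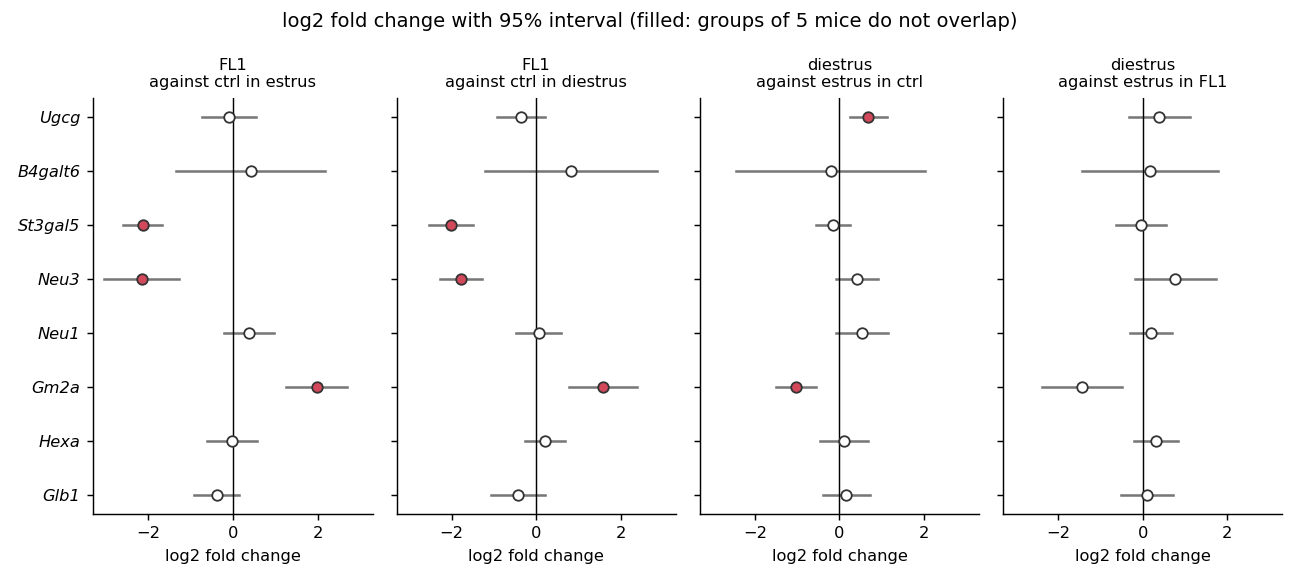
log2 fold change of 8 members (points) with 95% intervals (lines) in 4 comparisons; filled points mark comparisons in which the groups of 5 mice do not overlap, and B4galnt1 is absent because its counts were too low for the test. Intervals of St3gal5, Neu3 and Gm2a lie away from 0 in both comparisons of the lines, by which these genes were picked, so this is no test. In the comparisons of stages only the intervals of Gm2a in both lines and of Ugcg in ctrl mice lie away from 0.

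Ugcg (ENSMUSG00000028381, chromosome 4, 59189257 to 59222833, plus strand) commits ceramide to the path, and its levels overlapped between the lines. In estrus the ctrl mice had 53.2, 83.1, 76.9, 72.45 and 65.1 CPM and the FL1 mice 65.9, 80.9, 67.5, 20.1 and 96.5 CPM. In diestrus the ctrl mice had 150.2, 106.7, 83.8, 93.95 and 129.9 CPM and the FL1 mice 44.1, 94.9, 137, 80.6 and 81.4 CPM. The range of the FL1 mice enclosed all 5 ctrl mice in estrus and 4 of 5 in diestrus.

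The log2 fold change of Ugcg between the lines was −0.09 in estrus (interval −0.73 to 0.56, adjusted p = 0.969 from edgeR) and −0.36 in diestrus (interval −0.93 to 0.20, adjusted p = 1.00). In ctrl mice the 5 mice in diestrus lay above the 5 in estrus (log2 fold change 0.68, interval 0.24 to 1.12), yet the difference did not pass after adjustment over all genes (adjusted p = 0.143 from edgeR). In FL1 mice the estimate was 0.39 (interval −0.33 to 1.12). The last 500 bases of Ugcg share a near-identical stretch with Cyyr1, so some of its reads may have been left uncounted or assigned to either gene.

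Of the genes of the galactose step B4galt5, which is no member, had the higher counts. B4galt6 (ENSMUSG00000056124, chromosome 18, 20684599 to 20746404, minus strand) had 0 to 14.6 CPM in ctrl mice and 0.140 to 22.3 CPM in FL1 mice, with group means of 5.41 to 9.40 CPM. B4galt5 had 12.6 to 99.99 CPM, with group means of 33.7 to 57.8 CPM, and exceeded B4galt6 in all 20 mice, and its sum over a group was between 3.59 and 9.35 times that of B4galt6. The lines overlapped in both stages for B4galt6, and its log2 fold changes of 0.42 in estrus and 0.82 in diestrus had intervals of −1.34 to 2.18 and −1.22 to 2.85. Intervals as wide as these leave room for large differences in either direction.

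B4galnt1 (ENSMUSG00000006731, chromosome 10, 127165225 to 127172330, plus strand), which leads from GM3 to GM2, was close to the limit of detection. The ctrl mice had 0, 0, 6, 20 and 0 reads in estrus and 0, 0, 14, 0 and 0 in diestrus. The FL1 mice had 6, 74, 15, 2 and 20 reads in estrus and 0, 0, 0, 16 and 0 in diestrus. All 5 FL1 mice in estrus thus had reads against 2 of 5 ctrl mice, and 1 of 5 mice in diestrus in each line.

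A sample with 0 reads allows up to 3 reads at these depths, and B4galnt1 did not pass the filter of any comparison of 2 groups. The mice with the most reads in ctrl estrus, FL1 estrus and FL1 diestrus (20, 74 and 16 reads) were also those with the highest summed oocyte markers of their groups (486, 516 and 606 CPM), whereas the ctrl mouse in diestrus with 14 reads had the lowest sum (53.1 CPM). The part of oocyte RNA in these reads was not tested. B4galnt1 overlaps exons of Slc26a10 on the other strand, and the strand setting of the counting is not stated.

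The lysosomal members Neu1, Hexa and Glb1 overlapped between the lines. Neu1 (ENSMUSG00000007038, chromosome 17, 34931253 to 34935953, plus strand) had 33.8, 18.1, 52.55, 44.0 and 40.7 CPM in ctrl and 39.9, 41.1, 52.1, 54.0 and 59.5 CPM in FL1 mice in estrus. Its level was 40.5 to 78.2 CPM in ctrl and 44.5 to 79.7 CPM in FL1 mice in diestrus. The log2 fold change between the lines was 0.38 in estrus (interval −0.21 to 0.96, adjusted p = 0.706 from edgeR) and 0.05 in diestrus (interval −0.47 to 0.58, adjusted p = 1.00). Unlike Neu3, this sialidase thus showed no line difference beyond the spread between mice, although the intervals leave room for a rise in estrus of up to 0.96.

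Hexa (ENSMUSG00000025232, chromosome 9, 59539540 to 59565109, plus strand) had 39.3 to 93.4 CPM in ctrl and 32.65 to 88.7 CPM in FL1 mice in estrus, and 40.7 to 94.25 CPM in ctrl and 74.9 to 87.7 CPM in FL1 mice in diestrus. The 5 FL1 mice in diestrus were the most even group and lay within the range of the ctrl mice. The log2 fold change between the lines was −0.03 in estrus (interval −0.62 to 0.57) and 0.20 in diestrus (interval −0.27 to 0.67).

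Glb1 (ENSMUSG00000045594, chromosome 9, 114401076 to 114474898, plus strand) had means of 43.5 and 33.2 CPM in ctrl and FL1 mice in estrus and of 48.7 and 35.9 CPM in diestrus. The estimates were below 0 in both stages, −0.39 (interval −0.91 to 0.14, adjusted p = 0.632 from edgeR) and −0.43 (interval −1.06 to 0.20, adjusted p = 1.00), and passed in neither. Glb1 shares exon bases with Tmppe on the same strand, so reads of the shared bases cannot be told apart. Hexa shares them with Tmem202 on the other strand, where this depends on the strand setting.

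Over all genes the fit called 0.769% of 13007 genes between the lines in estrus and 0.248% of 12886 in diestrus, and 3.55% and 1.59% did not overlap. Of the 5 tested members that were not picked, 0 were called and 0 had an unadjusted p under 0.05 in either stage by edgeR, and 0 were called by DESeq2. With stage they were called in 0 of 5 cases in each line, and 1 (Ugcg in ctrl mice) had an unadjusted p under 0.05, as did 11.8% of all genes in ctrl mice. In FL1 mice 0 of the 8 members were called with stage, where 0.221% of 13114 genes were called, and 0 of the 8 were without overlap, where 2.42% of all genes were. For the difference of the line effects between the stages 0.0% of 14938 genes were called, and the estimates of the 5 genes lay between −0.33 (Neu1) and 0.37 (B4galt6). B4galnt1, which entered only this fit of all 20 mice, had an estimate of −1.63 (SE 2.70, interval −7.16 to 3.91) and was not called. Without 1 mouse its estimate ranged from −6.53 to 2.77, so its sign is open.

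Genes of the path were also compared within each mouse, as ratios of their CPM. The ratio of Neu1 to Neu3, the lysosomal to the membrane sialidase, had a median of 0.517 in ctrl and 4.12 in FL1 mice in estrus, and of 0.560 in ctrl and 1.99 in FL1 mice in diestrus. Neu3 was above Neu1 in all 10 ctrl mice and below it in all 10 FL1 mice. St3gal5 relative to Ugcg, the GM3 step relative to the first step, had medians of 2.51 and 0.594 in ctrl and FL1 mice in estrus and of 1.63 and 0.429 in diestrus.

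By contrast St3gal5 relative to Neu3 overlapped between the lines in both stages. Its medians were 2.23 and 4.2 in ctrl and FL1 mice in estrus and 1.98 and 1.63 in diestrus. The ratio of Gm2a to Hexa was 1.72 to 2.30 in ctrl and 3.19 to 17.1 in FL1 mice in estrus, and 0.638 to 1.13 in ctrl and 1.06 to 5.05 in FL1 mice in diestrus. Being built from the picked genes, these ratios are a description without a test.

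**Figure D3:**
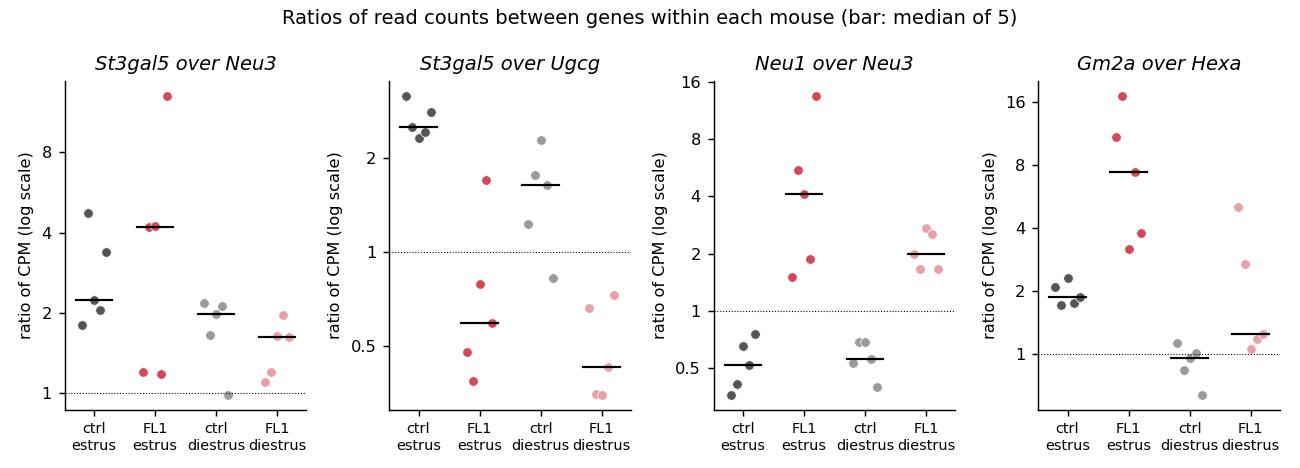
Ratio of the CPM of 2 genes within each of 20 mice (points, log axis), with the median of 5 mice as a bar and a dotted line at 1. Neu1 over Neu3 is below 1 in all 10 ctrl mice and above 1 in all 10 FL1 mice, whereas St3gal5 over Neu3 overlaps between the lines.

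The order of the members by level differed between the lines. In ctrl mice St3gal5 had the highest mean of the 9 genes in both stages, above Gm2a in all 5 mice in estrus without overlap, and above Ugcg in 4 of 5 mice in diestrus with overlap. In FL1 mice Gm2a was highest, above Ugcg without overlap in estrus and with overlap in diestrus, and St3gal5 had rank 5 of 9. Neu3 had rank 3 in ctrl mice and rank 7 in FL1 mice. B4galt6 and B4galnt1 had ranks 8 and 9 in all groups, and the ranks between Ugcg, Hexa, Neu1 and Glb1 mostly separated neighbours that overlapped.

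Other genes of glycosphingolipid metabolism were listed by role, from ceramide supply to lysosomal breakdown, 65 genes with the 9 members. Of these 50 passed the filter of at least 1 comparison of 2 groups, and 2 (Degs2 and Gal3st1) had 0 counts in all mice. Between the lines 0 of 42 non-members tested were called in estrus and 0 of 41 in diestrus. In estrus 6 of the 42 had an unadjusted p under 0.05 by edgeR, beside 10.7% of all genes, and DESeq2 called 2, Sgms2 and St3gal1, beside 2.7% of all genes with an adjusted p. In diestrus both counts were 0, beside 5.56% and 0.722%. The median log2 fold change of all path genes was 0.02 in estrus and 0.01 in diestrus, beside 0.01 over all genes in each stage.

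Sgms2 turns ceramide into sphingomyelin and so competes with Ugcg for it. It was 1 of 42 non-members tested in estrus without overlap between the lines, where 3.55% of all genes did not overlap, and no such gene was found among the 41 in diestrus. In estrus ctrl mice had 41.2 to 87.0 CPM and FL1 mice 103.3 to 228 CPM, with a log2 fold change of 1.06 (SE 0.25, interval 0.54 to 1.58, adjusted p = 0.0516 from edgeR). It passed with RLE size factors (adjusted p = 0.0483), with robust estimation (0.0465), without a filter (0.00284) and by DESeq2 (0.00485). It did not pass with the replicate number as a block (0.0848), with all 20 mice in 1 fit (0.0929) or in 9 of 10 fits without 1 mouse (up to 0.141). In diestrus the lines overlapped, with 53.0 to 149 CPM in ctrl and 54.9 to 142 CPM in FL1 mice. The difference of the line effects was −1.08 (SE 0.41, adjusted p = 0.977 from edgeR).

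Over all 20 mice pooled the highest mean of the list was that of St3gal4, a sialyltransferase that acts largely on glycoproteins. By group its mean was 343 CPM in ctrl and 187 CPM in FL1 mice in estrus (a log2 fold change of −0.87, interval −1.42 to −0.32, adjusted p = 0.148 from edgeR) and 449 and 359 CPM in diestrus. Gm2a and Psap followed in the pooled mean, but the order differed between groups. In FL1 mice in estrus Gm2a (502 CPM), Psap (376 CPM) and the ceramide synthase Cers5 (195 CPM) had higher means than St3gal4, and in ctrl mice St3gal5 and Cers5 came next after it. Psap, the precursor of the saposins that assist other steps of lysosomal breakdown, had 77.5 to 246 CPM in ctrl and 148 to 921.5 CPM in FL1 mice in estrus, and its log2 fold change of 1.28 (interval 0.42 to 2.13, adjusted p = 0.186 from edgeR) leaned on FL1 replicate 2, the mouse with the highest Gm2a.

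By role the path genes were mixed. Among 12 genes of lysosomal breakdown tested, 5 were above and 7 below 0 in estrus, and 7 above and 5 below in diestrus. Gm2a, which was picked on this contrast, was the only one called in estrus (0.769% of all genes). In diestrus 0 were called (0.248% of all genes). Of 9 genes of ceramide supply tested, 7 were above 0 in estrus and 4 in diestrus, with none called. In the list of 34 further lysosomal proteins, such as cathepsins and membrane proteins of the lysosome, 0 were called in any comparison by the main edgeR fit. Between the lines 8 in estrus and 6 in diestrus had an unadjusted p under 0.05 by edgeR (10.7% and 5.56% of all genes). DESeq2 called 0 of the 34 between the lines and 2 with stage in each line, Ctsb and Arsb in ctrl mice (3.42% of all genes) and Ctsb and Ctsl in FL1 mice (1.74%). Without a filter edgeR called the same genes with stage (348 of 24038 genes in ctrl and 299 of 24355 in FL1 mice). With all 20 mice in 1 fit it called Ctsb in ctrl mice (adjusted p = 0.0453 from edgeR, 163 of 14938 genes called). The median log2 fold change of the 34 between the lines was 0.13 in estrus and 0.30 in diestrus, beside 0.005 and 0.011 over all genes. Of the 34, 22 were above 0 in estrus and 27 in diestrus.

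**Figure D4:**
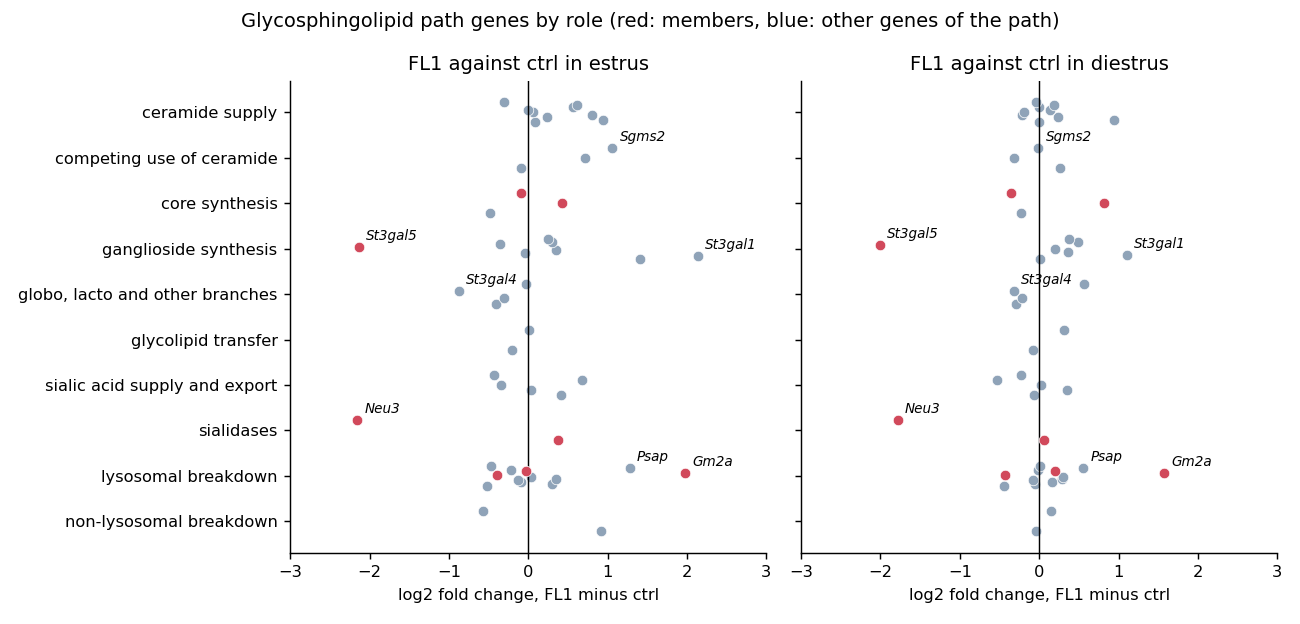
log2 fold change, FL1 minus ctrl, of the glycosphingolipid path genes tested (points) by role, in estrus (50 genes) and diestrus (49 genes); members are red and other genes blue. St3gal5 and Neu3 lie at about −2 in both stages and Gm2a at 1.58 to 1.98, while most other genes lie near 0. In estrus the non-member St3gal1 lies beyond Gm2a, and Psap and Sgms2 lie well above 0 as well.

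With stage 1 of 48 path genes tested in ctrl mice was called, Gm2a (1.36% of all genes). Of these 48, 10 had an unadjusted p under 0.05 by edgeR (11.8% of all genes). Without overlap 2 lay higher and 3 lower in diestrus (3.66% of all genes in either direction). DESeq2 called Kdsr, Gm2a and St3gal1 in ctrl mice (3.42% of all genes). In FL1 mice 0 of 48 were called (0.221% of all genes), and 1 was lower without overlap (2.42% in either direction). There 6 had an unadjusted p under 0.05 by edgeR (9.48% of all genes) and DESeq2 called 2, St3gal1 and St3gal4 (1.74% of all genes). For the difference of the line effects 0 of 53 path genes were called by edgeR or DESeq2 (0.0% and 0.00383% of all genes), and 3 had an unadjusted p under 0.05 (4.75% of all genes).

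The genes with the pattern most like the picked genes were sought among the 12269 others tested in both stages. Likeness was the root mean square difference of log2 CPM over the 20 mice after each gene was centred on its own mean. It reflects the line difference by which the genes were picked and shared library effects, and is given as a description. Among the 5 nearest to St3gal5 were Rpl32 (0.576), Mfap2, a protein of microfibrils (0.592), Rpl7a (0.601) and Jam2, a junction protein (0.630), where the median gene was at 1.27.

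The ribosomal protein genes Rpl32 and Rpl7a belong to families with many near-identical copies, so their counts are uncertain. Neu3 had rank 59 in the order for St3gal5 (0.857), and St3gal5 rank 9 in that for Neu3.

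Among the 5 nearest to Neu3 were Hpgd, which inactivates prostaglandins (0.652), Rpl32 (0.747), Mlf1 (0.799) and Me2, a mitochondrial malic enzyme (0.803). For Gm2a they were Acsl4, which activates arachidonic acid (0.435), Sparc, a matrix protein (0.515), Cyp11a1, the first enzyme of steroid synthesis (0.537), Pcolce (0.557) and the kinase Sgk1 (0.562). Cyp11a1 averaged 668 CPM in ctrl and 2674 CPM in FL1 mice in estrus and 301 and 732 CPM in diestrus. As with Gm2a, its highest mouse was FL1 replicate 2 in estrus.

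**Figure D5:**
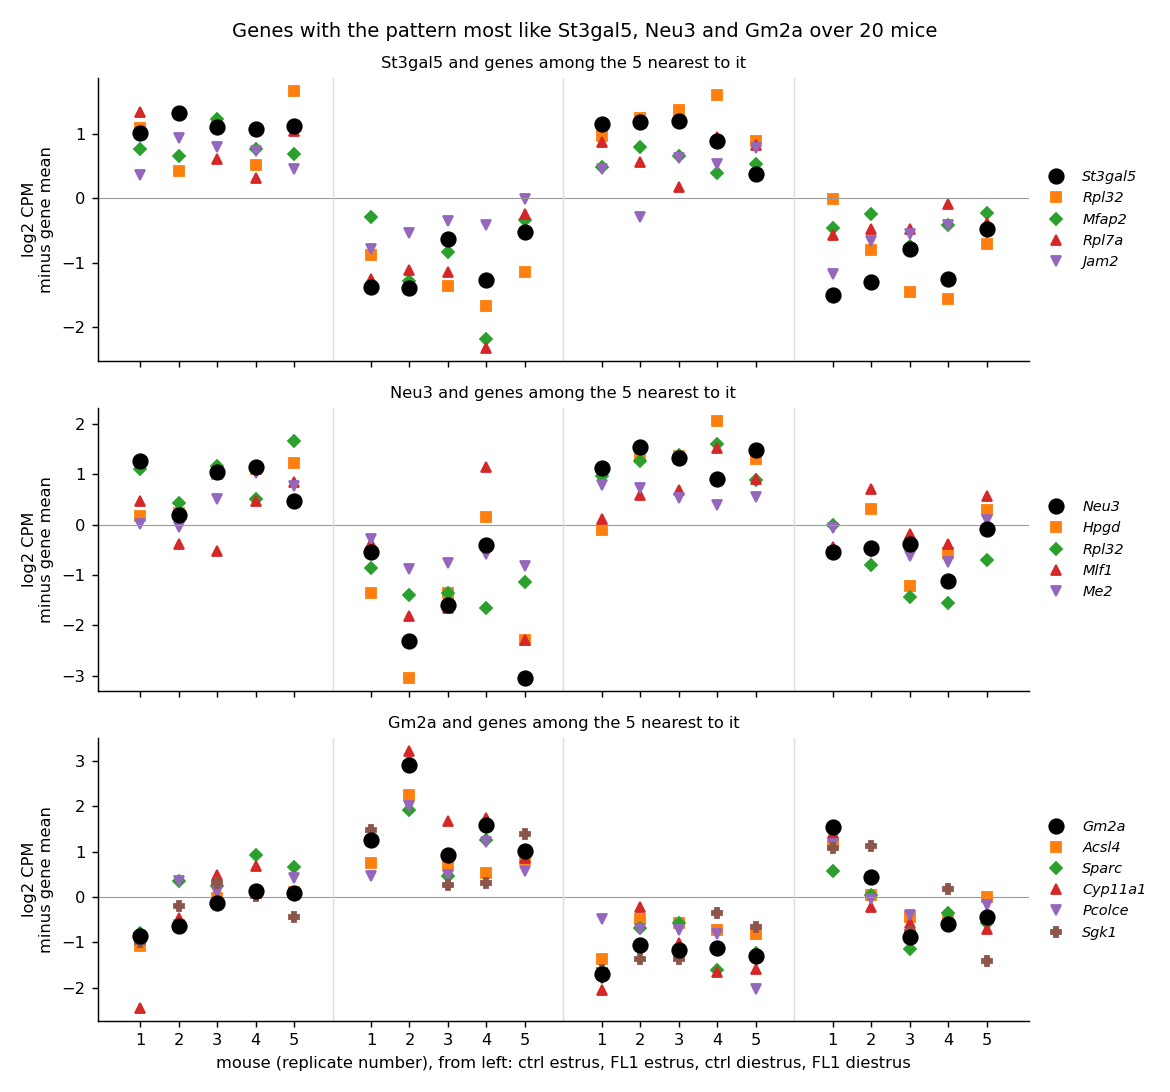
log2 CPM minus the gene's own mean in each of 20 mice, in 4 blocks of 5, for St3gal5, Neu3 and Gm2a (black) and genes among the 5 nearest to each (coloured). The genes near St3gal5 and Neu3 lie mostly above 0 in ctrl and below 0 in FL1 mice, and those near Gm2a peak in FL1 replicate 2 in estrus.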

How the data were processed

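GCs of 20 mice were sequenced with a 3′ mRNA kit. The authors aligned the reads with STAR to GRCm38 (per the labels) and deposited the reads counted on every Ensembl gene as raw counts, 1 file a mouse, not normalized. Reads with several matches were not counted. Of all reads, 41.6% to 51.1% were in rows that name no gene and were left out.

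Symbols and positions came from GENCODE M21. Counts were fitted in R 4.3.3 with edgeR 4.0.16 (TMM, filterByExpr with a minimum count of 10, minimum total of 15 and minimum share of 0.7, quasi-likelihood F test, Benjamini-Hochberg adjustment over all genes, called at 0.05 or less), on the 10 mice of the groups compared, or on 20 for the interaction. The steps were tested on simulated data. DESeq2 1.42.0 was an alternative, as were RLE size factors, no filter, robust estimation, the replicate number as a block, all mice in 1 fit, plain library sizes and each mouse left out. Near-identical copies were sought with BLAST 2.17.0 (90% identity over 100 bases of the last 500). Python 3.11.15 was used for tables.

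The members and lists were chosen with earlier results of these data known. Named are the 9 members, path genes called or without overlap between lines, the 3 path genes of highest level, called lysosomal genes and genes among the 5 nearest patterns of each picked gene; some results are not reported here. B4galt5, St3gal1, Neu2, Neu4, Gm29438 and the genes given beside alternatives were chosen with their values in view. Replicate numbers are shared between groups but number different mice. Deviations of same-numbered mice from their group means correlated at −0.12 to 0.12. No pairing by number was thus seen, but a check of 5 pairs in each comparison cannot exclude one. Counts of no 2 mice of a group agreed within sampling noise. Intervals cover the spread between mice.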

Additional observations from a re-analysis of the deposited data

Results flagged for a closer look

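Of 36 groups of 5 mice (9 genes in 4 groups), 5 held a mouse whose gap to the nearest other exceeded 0.71 of the group's range, where chance gives about 1 in 20 groups. That rate does not apply to B4galnt1 in the diestrus groups, where 4 of 5 mice had 0 reads and the gap equals the range by construction. Gm2a reached 1119 CPM in FL1 replicate 2 in estrus, where the next mouse had 450.4 CPM. B4galt6 reached 22.33 CPM in FL1 replicate 2 in diestrus, beside 7.85 CPM in the next mouse. B4galnt1 reached 2.945 CPM in ctrl replicate 4 in estrus (next 0.687 CPM), 1.868 CPM in ctrl replicate 3 in diestrus and 2.726 CPM in FL1 replicate 4 in diestrus, where the other mice of both diestrus groups had 0 reads. These 3 values of B4galnt1 rest on 20, 14 and 16 reads.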

How the results depend on the processing

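St3gal5 and Neu3 stayed lower and Gm2a higher in FL1 mice of both stages under all 16 alternatives each (log2 fold changes of −2.27 to −1.91, −2.48 to −1.66 and 0.99 to 2.14). They were picked for this contrast and did not overlap between the lines, so the sign was fixed in advance and is no support. Counts of called path genes moved more. In estrus DESeq2 called 5 (2.7% of all genes with an adjusted p) and edgeR without a filter 7 (373 of 24103 genes) in place of 3 (0.769%). The 3 are the picked genes, which each of these counts includes. Both settings added Sgms2 and St3gal1 and, without a filter, Psap and St3gal4 came in as well. With stage in ctrl mice DESeq2 called 3 (3.42% of all genes) in place of 1 (1.36%). There the fit of all 20 mice called 0 (163 of 14938 genes), and fits without 1 mouse called 0 to 1. With stage in FL1 mice DESeq2 called 2 (1.74% of all genes) and no filter 4 (299 of 24355 genes) in place of 0 (0.221%). There all 20 mice in 1 fit gave 1 (65 of 14938 genes), and fits without 1 mouse called 0 to 2. The replicate number as a block gave 3 path genes in estrus, 2 in diestrus, 1 with stage in ctrl mice, 0 for the interaction and 1 with stage in FL1 mice (St3gal1), and of the same-numbered mice at most 1 of 5 in a comparison correlated best with its own number. Without a filter Gm2a was called with stage in FL1 mice (adjusted p = 0.000556 from edgeR). Across all genes DESeq2 called 425, 118, 526 and 265 genes where edgeR called 100, 32, 175 and 29 (lines in estrus, lines in diestrus, stage in ctrl, stage in FL1). On plain library sizes each member's group mean moved by less than 1 SD. The interaction gave 0 path genes under each of its alternatives. Where a setting changed a count, the cause was not tested. B4galt6 and B4galnt1 had the fewest reads of the members, 0 to 163 per mouse.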

Other observations

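St3gal1, a sialyltransferase of O-glycans that also acts on larger gangliosides, lay close to the threshold in 2 comparisons, and was named after its values had been seen. Ctrl mice in estrus had 7.21 to 28.2 CPM and FL1 mice 18.7 to 198 CPM (log2 fold change 2.14, SE 0.57, adjusted p = 0.0971 from edgeR). In diestrus ctrl mice had 3.88 to 5.75 CPM and FL1 mice 5.46 to 15.5 CPM. From estrus to diestrus the estimate was −2.69 in FL1 mice (SE 0.55, adjusted p = 0.0521 from edgeR) and −1.66 in ctrl mice (SE 0.56, adjusted p = 0.195), and in both lines the mice in diestrus lay below those in estrus.

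Chromosomal neighbours of the picked genes were also examined. Of the 10 nearest tested genes of St3gal5, Neu3 and Gm2a each, 5 on either side, 0 were called by edgeR in either stage, beside 0.769% (estrus) and 0.248% (diestrus) of all genes. Their log2 fold changes in estrus ranged from −1.32 to 0.60 around St3gal5, from −0.58 to 1.14 around Neu3 and from −0.68 to 0.88 around Gm2a. Sparc, which lies 281471 bases beyond Gm2a, was also the second nearest gene to it in pattern.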
